A study of Mus musculus with 4 samples.

Results

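The genes described here encode 9 growth factors that fibroblasts are known to secrete: Hbegf, Areg and Ereg of the EGF family, Fgf2 and Fgf7 of the FGF family, Gdnf, Hgf, Pdgfa and Igf1. They were measured by 15 of 39429 non-control probes, chosen because the gene name in the scanner files was that of a member. The gene names on the array numbered 30175. RNA came from NIH-3T3:Per2-Luc cells, a mouse fibroblast line that carries luciferase driven by the Per2 promoter. The control array held cells given 0 mM H2O2, whose medium was exchanged for fresh medium, and its label gives 4 h. A cOS-pulse, 5 mM H2O2 for 10 min, was given to the cells of the other 3 arrays, and their RNA was taken 4 h, 20 h or 32 h later. The study compared the pulsed cells with the control to follow early gene regulation at 4 h and later changes at 20 h and 32 h.

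There was 1 array per condition, so no test was possible and no p-value or SD between arrays of a condition is given. All 4 arrays lay on 1 slide. No control was labelled 20 h or 32 h, so time since the medium change and time since the pulse cannot be told apart at those times. The 3 comparisons over the control share the control array. In bulk RNA, fewer cells and less RNA per cell cannot be told apart. Probes well above background made up 52.7% to 59.1% of each array, and no spot was saturated. Of 14 fibroblast markers 12 were well above background on all arrays, Fap and Postn being the exceptions. The epithelial markers Epcam, Cdh1, Krt18, Krt19 and Cldn4 and the pan-leukocyte marker Ptprc were not well above background on any array, while the epithelial Krt8 and Krt14 and the immune Cd68, Csf1r, Cd3e and Itgam each had a probe that was on all of them.

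Growth factors are secreted proteins that bind receptors on the same cell or on its neighbours, and most of the receptors of these 9 are tyrosine kinases that signal growth and survival through the MAP kinase and PI3 kinase pathways. The EGF family members are made as membrane proteins and released by proteases of the ADAM family, after which they bind EGFR and other ErbB receptors. FGF7 and HGF are classical products of mesenchymal cells that act mainly on epithelium, through a splice form of FGFR2 and through MET. GDNF signals through RET with a GFRα coreceptor, PDGF-A through PDGFRα and IGF-1 through IGF1R. HGF needs cleavage before it is active, and IGF-1 is held by binding proteins that proteases cut.

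Sequences of probes and promoters are shown because the statements on low signal and on promoter motifs refer to them. The first set is the 60-base probe of Areg and the Fgf2 probe spotted 10 times on each array, on which the statements about low signal rest. The Areg probe lies at chr5:91570090-91570149 on the plus strand of mm9, the build of the array files. The Fgf2 probe runs from position 37247934 to 37295153 of mm9 chromosome 3, a span of 47220 bases, so its 60 bases come from separate exons. No base in these probe sequences is marked.
Areg probe: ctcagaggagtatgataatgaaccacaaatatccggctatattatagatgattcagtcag
Fgf2 probe: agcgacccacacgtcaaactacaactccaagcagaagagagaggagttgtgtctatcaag

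The second set is promoter sequence from RefSeq on GRCm38.p6, of which the table used here held 10 windows for 7 of the members, each from 250 bases before to 50 bases after a start. Hbegf and Ereg had no window, so the motif statements do not cover them. The 250 bases before the start are printed for Areg, of the EGF family, and for the first of 2 Gdnf starts, since Gdnf reached the 2-fold threshold at 4 h. Capitals mark a match to the CRE motif.
Areg promoter, chr5:91139349-91139598: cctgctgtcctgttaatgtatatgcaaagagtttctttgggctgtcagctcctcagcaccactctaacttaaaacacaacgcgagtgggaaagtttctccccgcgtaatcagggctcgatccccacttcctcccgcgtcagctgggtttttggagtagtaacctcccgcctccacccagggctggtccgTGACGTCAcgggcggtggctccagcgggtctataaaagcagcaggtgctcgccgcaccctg
Gdnf promoter, chr15:7809798-7810047: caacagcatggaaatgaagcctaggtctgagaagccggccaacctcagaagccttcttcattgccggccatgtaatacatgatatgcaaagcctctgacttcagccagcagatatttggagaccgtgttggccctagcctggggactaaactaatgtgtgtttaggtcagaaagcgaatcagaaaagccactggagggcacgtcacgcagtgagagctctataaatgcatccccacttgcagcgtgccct

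The motifs searched on both strands of the whole windows were the AP-1 site TGANTCA, the CRE TGACGTCA, the antioxidant response element core TGACNNNGC, the E-box CACGTG, the heat shock element core GAANNTTC and the SRF site. An AP-1 site that begins TGAC and is followed by GC counts as an antioxidant response element core too. The Areg window held 1 CRE, a motif found in 1.79% of all 32851 windows. Neither Gdnf window held any of these motifs. The Igf1 window held 1 AP-1 site, against 7.81% of all windows. The Fgf2 window held 2 antioxidant response element cores and 1 each stood in 1 Hgf and 1 Pdgfa window, against 12.4% of all windows. That Pdgfa window also held 1 heat shock element core, against 7.86% of all windows. No member window held the E-box, found in 7.15% of all windows, or that SRF sequence, found in 0.0639%. A sequence so rare would be absent from most small sets of windows, so nothing is concluded on SRF sites. The Fgf7 window held no match.

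Signals below are log2 intensities less the 75th percentile of the array, so that 0 is the 75th percentile, and levels of different probes are not compared. A ratio was measured where the probe was well above background on both arrays. The error after each ± is the spot error of the scanner software, about 10% per spot, and it does not include the spread between cultures. Of the 15 probes, 8 were well above background on all 4 arrays, 1 on 1 array and 6 on none. The 8 probes covered 7 of the 9 genes, Areg and Fgf2 being without one.

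At 4 h, 2 of the 8 measured probes exceeded the control by 2-fold or more, those of Ereg and Gdnf, and 0 were at least 2-fold lower. Among all probes measured on both arrays 8.63% were at least 2-fold higher and 7.91% at least 2-fold lower. The median log2 ratio of the 8 probes was 0.32, against 0.17 over all measured probes. At 20 h 0 were at least 2-fold higher and 1 lower, that of Hbegf, where 0.704% and 2.05% of all measured probes were. At 32 h the counts were again 0 higher and 1 lower, against 1.05% and 1.5% of all measured probes. Between 20 h and 32 h, 0 of the 8 differed by 2-fold, with 0.449% of all measured probes higher and 0.193% lower at 32 h.

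**Figure D1:**
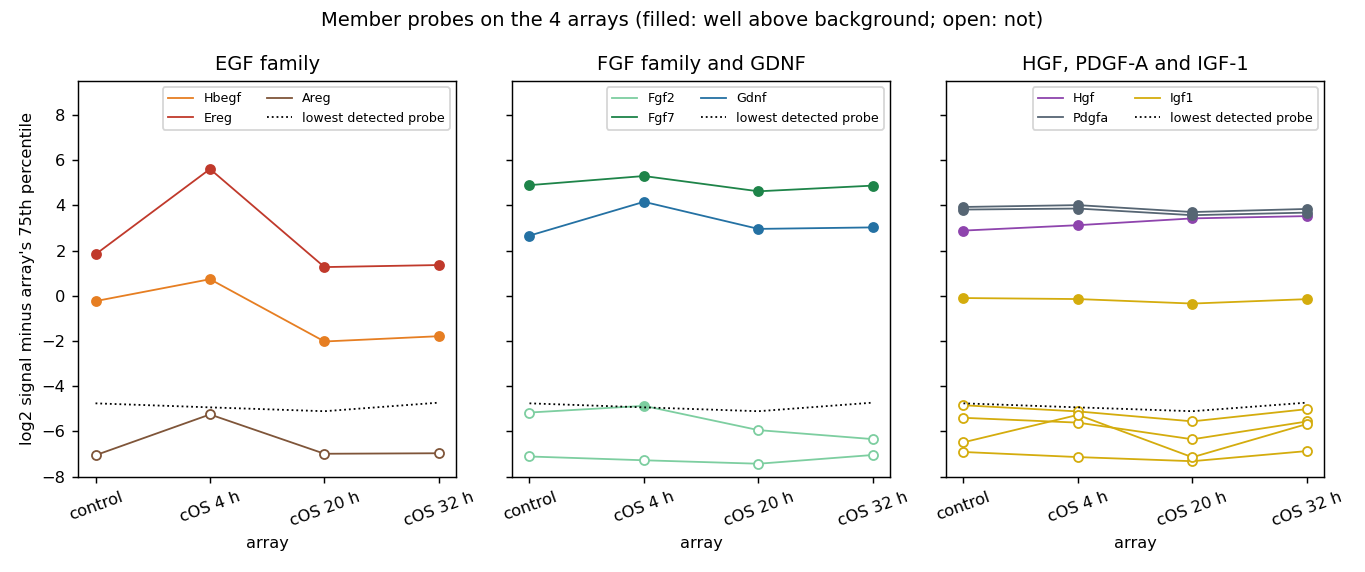
Log2 signal of the 15 member probes less the 75th percentile of the array (vertical axis) on the 4 arrays (horizontal axis), in panels by family, with filled circles for probes well above background, open circles for the others and a dotted line for the lowest probe well above background on each array. Ereg stood at 5.61 at 4 h and between 1.27 and 1.83 on the other arrays, and Areg lay below the dotted line on all 4.

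The highest and the lowest of the member ratios belonged to the EGF family. Ereg encodes epiregulin, a ligand of EGFR and ErbB4. Its probe lies at chr5:91522553-91522612 of mm9 and read 1.83 in the control, 5.61 at 4 h, 1.27 at 20 h and 1.36 at 32 h. The 4 h array stood alone, and the 2 late arrays were the lowest. Ereg was 13.7-fold higher at 4 h than in the control, a log2 ratio of 3.77 ± 0.20. At 20 h it was 1.48-fold lower, at -0.56 ± 0.20, and at 32 h 1.39-fold lower, at -0.47 ± 0.20. Before scaling, the same probe read intensities of 3946 in the control and 44448 at 4 h.

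Hbegf encodes heparin-binding EGF-like growth factor, a membrane-bound ligand of EGFR and ErbB4 that is shed under stress. Its probe, on chromosome 18, read -0.24 in the control, 0.73 at 4 h, -2.02 at 20 h and -1.79 at 32 h. It was thus highest at 4 h and lowest on both late arrays. At 4 h it was 1.96-fold higher than in the control, at 0.97 ± 0.20, so that the 2-fold threshold lay within the spot error. At 20 h it was 3.45-fold lower, at -1.79 ± 0.21. At 32 h it was 2.93-fold lower, at -1.55 ± 0.21, and the step from 20 h to 32 h, 0.23 ± 0.21, was close to the spot error.

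Areg encodes amphiregulin, a ligand of EGFR. Its probe read -7.05 in the control, -5.25 at 4 h, -6.99 at 20 h and -6.97 at 32 h. None of these was well above background, and the lowest probe that was stood at -4.76 in the control and -4.94 at 4 h. No ratio was taken, and a change in Areg below the reach of the array was not detectable.

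Ereg and Areg are neighbours on chromosome 5, together with the EGF family ligands Epgn and Btc. On mm9 the Epgn probe lies 58.4 kb and the Areg probe 47.5 kb from that of Ereg, with the Btc probe 264 kb away. Epgn, which encodes epigen, read -3.70 in the control, -2.16 at 4 h, -4.27 at 20 h and -4.11 at 32 h. It was at 1.54 ± 0.27 at 4 h over the control, so the 2 genes of the 4 that were measured both stood at least 2-fold higher at that time. Btc, which encodes betacellulin, was below the background criterion on every array.

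**Figure D2:**
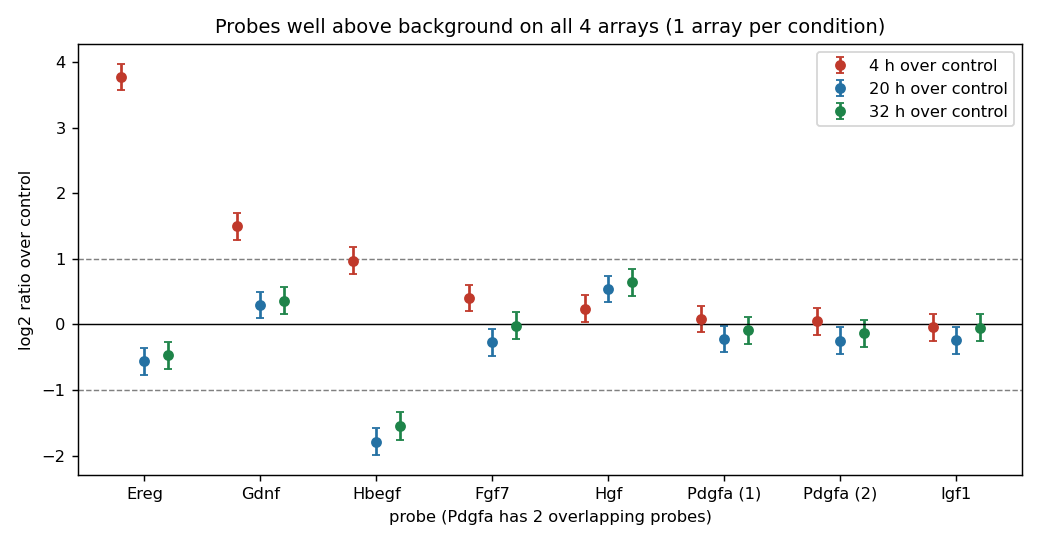
Log2 ratio over the control (vertical axis) at 4 h, 20 h and 32 h for the 8 member probes well above background on all arrays, 1 array per condition, with bars for the spot error of the scanner software and dashed lines at 2-fold. Ereg, at 3.77, and Gdnf, at 1.495, lie above the upper line at 4 h, and Hbegf lies below the lower line at 20 h and 32 h.

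Gdnf encodes glial cell line-derived neurotrophic factor, which supports neurons and the budding kidney. Its probe, at chr15:7787474-7787533 of mm9, read 2.66 in the control, 4.16 at 4 h, 2.96 at 20 h and 3.02 at 32 h. The 4 h array stood above the other 3, and the control was the lowest. Gdnf was 2.82-fold higher at 4 h than in the control, at 1.495 ± 0.204. At 20 h the log2 ratio was 0.30 ± 0.20 and at 32 h 0.36 ± 0.20, so that unlike Ereg and Hbegf it did not read below the control at the late times.

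Fgf7, or keratinocyte growth factor, read 4.89 in the control, 5.30 at 4 h, 4.62 at 20 h and 4.87 at 32 h with the probe at chr2:125916134-125916193 of mm9. All 4 arrays lay within 2-fold of each other. The log2 ratio over the control was 0.40 ± 0.20 at 4 h, -0.27 ± 0.20 at 20 h and -0.02 ± 0.20 at 32 h.

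Fgf2, or basic FGF, a ligand without a classical signal peptide, had a probe with 10 spots per array that read -5.17 in the control, -4.87 at 4 h, -5.94 at 20 h and -6.34 at 32 h. Of its spots, 2 were well above background in the control, 5 at 4 h, 0 at 20 h and 0 at 32 h. Over the 10 spots the SD was 0.61 in the control and 0.44 at 4 h. This is the spread of single spots and not the error of their means, and no ratio was taken. The probe counted as well above background at 4 h only, with 5 of its 10 spots, and its signal there did not exceed the lowest probe well above background in the control, so no bound could be given. A second Fgf2 probe read between -7.43 and -7.04 and on no array was it well above background.

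Hgf encodes hepatocyte growth factor, or scatter factor. Its probe, at chr5:16124829-16124888 of mm9, read 2.88 in the control, 3.12 at 4 h, 3.42 at 20 h and 3.52 at 32 h. Both late arrays lay above the control and the 4 h array. The log2 ratio over the control was 0.24 ± 0.20 at 4 h, 0.54 ± 0.20 at 20 h and 0.64 ± 0.20 at 32 h, the last being 1.56-fold. Hgf had the highest ratio of the 8 member probes at 20 h and at 32 h, below 2-fold at both.

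Pdgfa encodes the A chain of platelet-derived growth factor and had 2 probes on the minus strand of chromosome 5 that share 51 of their 60 bases, so they are not independent measurements. The first read 3.93 in the control, 4.01 at 4 h, 3.70 at 20 h and 3.84 at 32 h. The second read 3.81, 3.86, 3.56 and 3.68 on the same arrays. Their log2 ratios over the control ran from -0.25 to 0.08 and were within 0.047 of each other in every comparison. No array stood apart.

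Igf1 encodes insulin-like growth factor 1 and had 5 probes, of which 1 was well above background on all arrays and 4 on none. The measured probe, at chr10:87378456-87378515 of mm9, read -0.10 in the control, -0.15 at 4 h, -0.35 at 20 h and -0.15 at 32 h. Its log2 ratios over the control were -0.04 ± 0.20 at 4 h, -0.24 ± 0.20 at 20 h and -0.05 ± 0.21 at 32 h. The other 4 probes lie at least 15.0 kb further along the chromosome and are assigned to a different RefSeq transcript in the array's annotation. They read between -7.32 and -4.85, so the probes of this gene disagree on whether it was expressed. Of these, 2 share 40 bases with each other.

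The choice of scaling moved the 4 h values, all by the same amount except under quantile normalization, where the shift differed between probes. All measured probes had a median log2 ratio of 0.17 at 4 h under the 75th percentile, and of -0.19 when arrays were scaled by their medians. Less the median of all measured probes, Ereg stood at 3.60, Gdnf at 1.32, Hbegf at 0.80, Fgf7 at 0.23 and Hgf at 0.07. On that basis the Pdgfa probes were at -0.09 and -0.13 and Igf1 at -0.22. Across 5 other scalings Ereg ran from 3.41 to 3.65 and Gdnf from 1.13 to 1.37, both above 2-fold throughout, and Hbegf ran from 0.61 to 0.97, below it throughout. Hgf at 4 h ran from -0.12 to 0.11 and the first Pdgfa probe from -0.28 to -0.04, so neither has a settled direction at that time. At 20 h the values without scaling were 0.06 for Fgf7, 0.09 for Igf1 and 0.11 and 0.08 for the Pdgfa probes, all opposite in sign to those above.

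**Figure D3:**
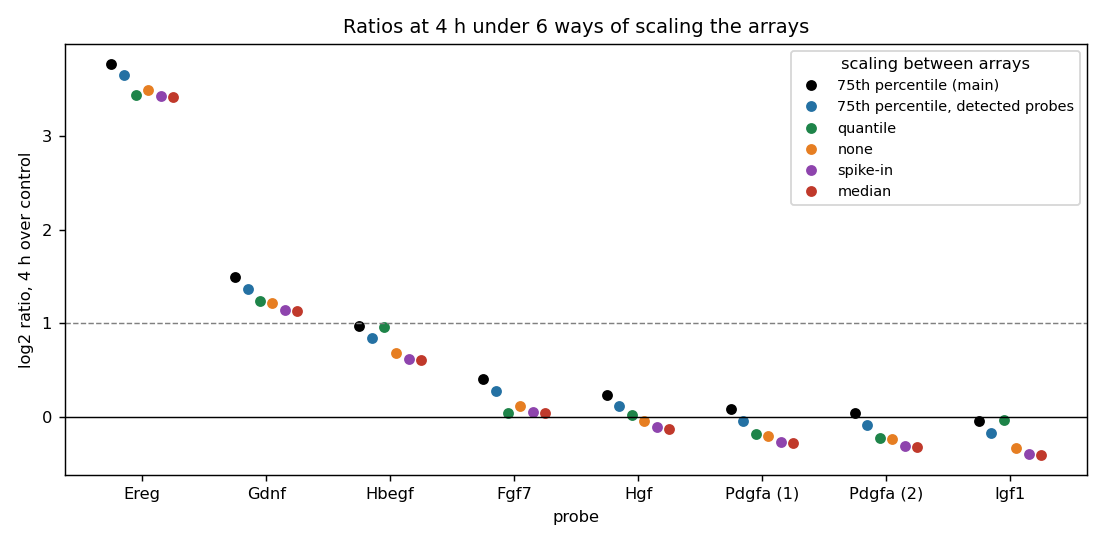
Log2 ratio of 4 h over the control (vertical axis) for the 8 member probes well above background on all arrays under 6 ways of scaling the arrays (colours), with a dashed line at 2-fold. Ereg and Gdnf stay above the line in all 6, Hbegf lies below it in all 6, and Hgf and Pdgfa fall on both sides of 0.

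For each member probe at least 2-fold from the control at some time, the 3 named probes with the nearest set of ratios at 4 h, 20 h and 32 h were found among 15121 probes of other genes well above background on all 4 arrays. The measure was the Euclidean distance of the 3 log2 ratios, which share the control array. For Ereg they were Col7a1, a collagen of the basement membrane zone, at a distance of 0.60, Slc7a1, a cationic amino acid transporter, at 0.63, and Ptgs2, the inducible cyclooxygenase, at 0.66. Ptgs2 stood at 3.73 at 4 h, -0.28 at 20 h and 0.12 at 32 h. For Gdnf they were Gabarapl1, an autophagy protein, at 0.032, Tnfrsf25, a death receptor, at 0.049, and Nr4a1, an immediate early nuclear receptor, at 0.051. For Hbegf they were Slc16a9, a monocarboxylate transporter family member, at 0.36, Plau, the urokinase plasminogen activator, at 0.39, and Enc1 at 0.47. The spot error of each Gdnf ratio was 0.20, more than any of its 3 distances. The 3 distances of each member also differed by less than that, so the choice and order of the nearest probes are not settled.

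Of 11 receptor genes, 6 had a probe well above background on all arrays and 4 had none well above background on any. Egfr, the receptor of all 3 EGF family members, had 3 probes, none of them well above background on any array, and the probes of Erbb3 and Erbb4 were not either. Erbb2, a coreceptor that binds no EGF family ligand itself, read -0.74 in the control, -2.10 at 4 h, -0.93 at 20 h and -0.94 at 32 h, and was at -1.36 ± 0.07 at 4 h over the control.

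The PDGF-A receptor Pdgfra read 4.46 in the control, 2.91 at 4 h, 4.01 at 20 h and 4.28 at 32 h, and was at -1.55 ± 0.06 at 4 h while its ligand Pdgfa was at 0.08. The IGF-1 receptor Igf1r read 2.50, 1.28, 2.55 and 2.61 on the same arrays and was at -1.22 ± 0.20 at 4 h. Pdgfra and Igf1r, like Erbb2, were thus lowest at 4 h and within 2-fold of the control at 20 h and 32 h. Met, the HGF receptor, was at 0.41 ± 0.08 at 4 h, -0.12 at 20 h and -0.01 at 32 h.

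Fgfr1 had 3 probes with log2 ratios of 0.00, 0.36 and 0.58 at 4 h, and Fgfr2, the gene of the FGF7 receptor, had 2 probes at 0.27 and 0.12. None of these 5 probes differed by 2-fold from the control at any time. Of the GDNF receptors, Gfra1 was below the background criterion on every array. Ret passed it in the 4 h array alone, at -4.77, with no bound over the control.

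Of 200 probes for 140 genes of related ligands, receptors, processing enzymes and inhibitors, 20 were at least 2-fold higher at 4 h and 14 lower, bounds included. This was 10% and 7%, against 6.77% and 4.94% of all probes on the array. Of the 20 higher at 4 h, 14 were measured ratios. Fewer were higher under each of the 5 other scalings and after normexp, as given in the closing section. At 20 h 1 was higher and 16 lower, which was 0.5% and 8%, against 0.763% and 1.87% of all probes. At 32 h 1 was higher and 9 lower, which was 0.5% and 4.5%, against 1.15% and 1.43% of all probes. The median log2 ratio of the measured probes was 0.08 at 4 h, -0.14 at 20 h and -0.02 at 32 h, where that of all measured probes was 0.17, 0.00 and -0.01. At 32 h over 20 h, 2 were higher and 0 lower, against 1.06% and 0.497% of all probes.

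**Figure D4:**
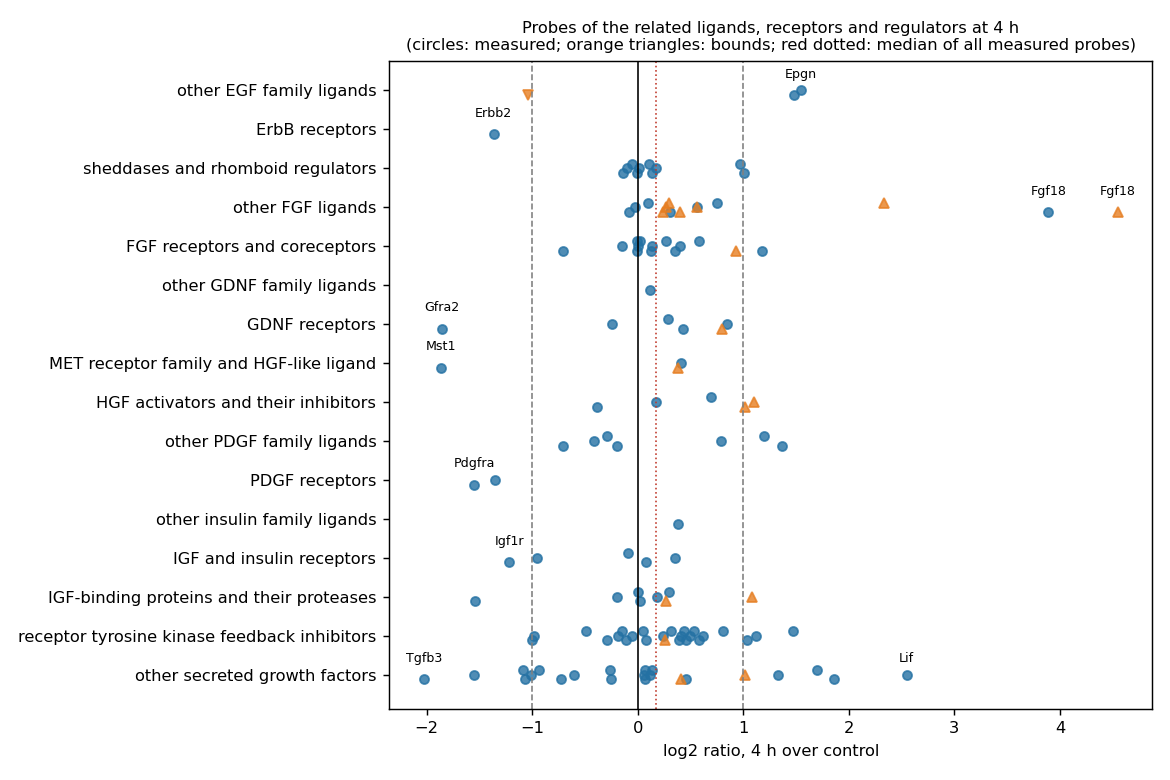
Log2 ratio of 4 h over the control (horizontal axis) for the probes of 16 lists of related genes (vertical axis), 1 array per condition, with circles for measured ratios, triangles for bounds, dashed lines at 2-fold and a dotted line at the median of all measured probes, 0.17. The Fgf18 probes lie furthest to the right and Tgfb3, at -2.03, furthest to the left.

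Among the related ligands, Fgf18, an FGF of bone and lung development, had 2 probes that overlap by position and are not independent. One was at 3.89 ± 0.23 at 4 h, and the other, not well above background in the control, was at least 4.55 on the log2 scale. Of 2 overlapping Fgf20 probes, one passed the background criterion in the 4 h array alone, at least 2.33 over the control on the log2 scale. The other passed it on no array and read -5.76 in the control and -7.18 at 4 h, so the probes disagree. The Fgf18 probes and the first of Fgf20 were the 3 of 32 probes for FGF ligands other than Fgf2 and Fgf7 that stood at least 2-fold higher at 4 h, with 0 lower, and at 20 h and 32 h there were 0 in either direction. Of 11 probes for other EGF family ligands 2 were higher at 4 h, those of Epgn and of the neuregulin gene Nrg1, and 1 was lower, that of Egf. At 4 h 9.38% of these FGF probes were higher. For the EGF family probes it was 18.2% higher and 9.09% lower, against 6.77% and 4.94% of all probes. Of 3 probes for other GDNF family ligands only that of Nrtn had a ratio to the control, and of 3 for other insulin family ligands only that of Ins2, both within 2-fold of it at all times.

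Of 29 probes for other secreted growth factors and cytokines, 5 were higher and 5 lower at 4 h, and 0 higher and 7 lower at 20 h. At 4 h this was 17.2% each way, against 6.77% and 4.94% of all probes. At 20 h it was 0% and 24.1%, against 0.763% and 1.87% of all probes. Lif, an interleukin-6 family cytokine, was at 2.55 ± 0.21 at 4 h and -1.58 at 20 h. Inhba, which encodes the activin A subunit, was at 1.85 ± 0.21 and -1.21. Both resembled Ereg and Hbegf in reading above the control at 4 h and below it at 20 h.

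In the other direction, Tgfb3 was at -2.03 ± 0.06 at 4 h and Angpt1, the ligand of the endothelial receptor TIE2, at -1.55 ± 0.21. Csf1, the macrophage growth factor, had overlapping probes at -1.09 and -1.07 at 4 h and at -2.02 and -2.00 at 20 h. Another measured Csf1 probe, with 10 spots, disagreed with them at 0.06 ± 0.06 at 4 h and -0.88 ± 0.06 at 20 h. Tgfb2 had 2 probes at -0.94 and 0.07 at 4 h and at -1.76 and -1.04 at 20 h. Mdk, which encodes midkine, also had 2 probes that disagreed, at 0.07 and 1.33 at 4 h and at -1.50 and 0.37 at 32 h. Of 10 probes for other PDGF family ligands, the 2 of Vegfa were at least 2-fold higher at 4 h and lower at 20 h. This was 20% at each time, against 6.77% of all probes higher at 4 h and 1.87% lower at 20 h.

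Some of the listed genes act on the ligands outside the cell. Of 13 probes for ADAM proteases and rhomboid regulators, 1 was at least 2-fold higher at 4 h, that of Adam8 at 1.01 ± 0.21. At 20 h 1 was lower, that of Adam19 at -1.10. Each was 7.69% of the probes, against 6.77% of all probes higher at 4 h and 1.87% lower at 20 h. Of 11 probes for HGF activators and their inhibitors, 2 were higher at 4 h by bounds and 2 lower at 20 h. This was 18.2% at each time, against 6.77% of all probes higher at 4 h and 1.87% lower at 20 h. Both bounds were close to 2-fold, Hgfac at least 1.10 and F12 at least 1.02 on the log2 scale. One of the 2 lower at 20 h was Plau, at 0.69 ± 0.21 at 4 h, -1.60 at 20 h and -1.74 at 32 h. Mst1, which encodes the HGF-like ligand of the receptor RON, had 2 overlapping probes that disagreed. One was at -1.86 ± 0.32 at 4 h and at least 2.36 lower on the log2 scale at 20 h. The other was below the background criterion in the control and at least 0.38 higher on the log2 scale at 4 h.

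Of 14 probes for IGF-binding proteins and their proteases, 1 was higher and 1 lower at 4 h, and 2 were lower at 20 h and at 32 h. At 4 h this was 7.14% each way, against 6.77% and 4.94% of all probes. At 20 h and 32 h it was 14.3%, against 1.87% and 1.43% of all probes lower. Pappa, a protease that releases IGF from its binding proteins, was at -0.20 ± 0.21 at 4 h, -1.49 at 20 h and -1.20 at 32 h. Htra1, a secreted serine protease, was at -1.54 ± 0.22 at 4 h and 0.34 at 32 h. Igf1 itself was between -0.24 and -0.04 over the control.

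Coreceptors and feedback inhibitors made up the rest. Of 19 probes for FGF receptors and coreceptors 1 was at least 2-fold higher at 4 h, that of Fgfr4, and 0 at the late times. This was 5.26% at 4 h, against 6.77% of all probes. Of 11 probes for GDNF receptors, Gfra2, a coreceptor of the GDNF family, was at -1.85 ± 0.20 at 4 h, and 1 of 4 Gfra4 probes was at 2.21 ± 0.26 at 32 h after -0.04 at 20 h. The other 2 Gfra4 probes measured at 32 h were at 0.10 and 0.29. Both PDGF receptor probes were lower at 4 h, Pdgfrb at -1.35 ± 0.20. Of 5 probes for IGF and insulin receptors, that of Igf1r was the 1 lower at 4 h, 20% against 4.94% of all probes. Of 26 probes for feedback inhibitors of receptor tyrosine kinases, 3 were higher and 1 lower at 4 h, the highest being Spry4 at 1.47 ± 0.24. This was 11.5% and 3.85%, against 6.77% and 4.94% of all probes. Errfi1, an inhibitor of ErbB receptors, was at 0.45 ± 0.20 at 4 h and -1.26 at 20 h.

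Marker lists of other cell types were read beside these results. The summed signal of the 8 epithelial markers was -0.28 on the log2 scale in the control, 0.74 at 4 h, -0.01 at 20 h and -0.07 at 32 h, with Epcam and Cdh1 not well above background and the 2 Krt8 probes at 1.10 and 1.17 at 4 h over the control. Between 2 and 3 of the 8 genes were well above background on an array. That of the immune markers was 4.52, 5.12, 3.72 and 3.78, with 4 of 7 genes on the array well above background, Ptprc not among them. Most of it came from an Itgam probe that read 4.35, 4.92, 3.42 and 3.47 on the same arrays. A Cd68 probe was at 2.08 at 4 h over the control. The summed signal of the endothelial markers was 1.70, 2.15, 2.10 and 2.06, with 2 to 4 of 6 genes well above background. Tek and Tie1 were not among these, Pecam1 and a Kdr probe were on all arrays, and Cdh5 was at 1.87 at 4 h over the control. The summed signal of the fibroblast list was between 10.0 and 10.1 on all arrays, but single probes differed. Of its 19 probes 1 was at least 2-fold lower than the control at 4 h, that of Pdgfrb, and 3 at 20 h. This was 5.26% and 15.8%, against 4.94% and 1.87% of all probes. Those at 20 h were Thy1 at -1.39, Col1a1 at -1.06 and Col3a1 at -1.02, and 0 were higher at any time. The part of these markers in the values of the growth factors was not tested.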

How the data were processed

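RNA of 4 samples, 1 per condition, was labelled with Cy3 and hybridised to one-color Agilent mouse 4x44K v2 arrays. The authors deposited spot intensities from Agilent Feature Extraction 10.7.3.1, with background and spatial trend subtracted, and a table in which each array's intensities were divided by a single constant. Probe positions are on mm9, per the file headers.

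From the deposited intensities, log2 values were averaged over the spots of a probe without outlier flags (125 to 161 non-control spots per array were left out), and the 75th percentile of each array over 39429 probes was subtracted. A probe was well above background when at least 50% of its spots were. Where 1 of 2 arrays met this, the ratio was a bound, set against the dim array's own reading or, if that was lower, against its faintest probe well above background, and was given only where the bright array exceeded this. The threshold was 2-fold. With 1 array per condition there was no test to run, and precision is limited by the number of arrays. Members were named in full. Of the lists, the 20 probes furthest from the control and the receptors of the members were named, and a few more were named after their values were seen. One of these is not reported here. The members and lists were chosen with earlier results of these data known. Alternatives comprised 14 settings. Promoters came from RefSeq on GRCm38.p6. Exon or UTR was not assigned to probes. The calculation of ratios was tested on simulated data. Python 3.11.15, pandas 2.3.3, R 4.3.3 and limma 3.58.1 (normexp, offset 50) were used.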

Additional observations from a re-analysis of the deposited data

Results flagged for a closer look

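The probes of Ereg, Hbegf and Fgf7 read above the control at 4 h and below it at 20 h, on each side by more than the spot error. Ereg was at 3.77 and -0.56 on the log2 scale, Hbegf at 0.97 and -1.79, and Fgf7 at 0.40 and -0.27. With 1 array at each time the difference between the times was not tested. The control array is shared by both ratios, and under no scaling Fgf7 read 0.06 at 20 h. At 4 h Fgf7 was within the spot error under median scaling, at 0.042, quantile normalization, at 0.047, spike-in scaling, at 0.056, and no scaling, at 0.12.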

How the results depend on the processing

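No paired analysis was possible because each condition had 1 array, and leaving out an array leaves no comparison. Member ratios of at least 2-fold were those of Ereg and Gdnf at 4 h and of Hbegf at 20 h and 32 h. None of these changed sign under any setting that recomputed it, but scaling shifted values too little to reverse ratios of that size. Smaller ratios did change sign. Both Pdgfa probes at 4 h kept their sign in 6 of 11 settings, Fgf7 at 32 h in 7 and Hgf at 4 h in 8. Of 352 recomputed member ratios, 39 moved by more than the spot error. Counts are of probes at least 2-fold from the control unless stated. Of 224 recomputed counts 169 stayed within 1.5 times. With no detection filter, and equally with the positive and significant flag, members gave 4 higher at 4 h, 2 lower at 32 h and 1 higher at 32 h over 20 h, and the related genes 34 higher at 4 h, 4 higher and 27 lower at 20 h, 7 higher and 18 lower at 32 h, and 10 higher and 2 lower at 32 h over 20 h. At 3-fold, members gave 1 higher at 4 h and 0 lower at 32 h, and the related genes 6 higher and 3 lower at 4 h, 0 higher and 5 lower at 20 h, 4 lower at 32 h and 1 higher at 32 h over 20 h. At 1.5-fold, members gave 1 higher at 32 h, that of Hgf, and the related genes 6 higher and 29 lower at 20 h, 7 higher and 17 lower at 32 h, and 5 higher at 32 h over 20 h. Related genes higher at 4 h numbered 10 under median scaling, 12 under quantile normalization, 13 under the 75th percentile of probes detected on all arrays, 10 under spike-in scaling, 11 under no scaling and 10 after normexp. Those higher at 20 h numbered 2 under spike-in scaling, 4 under no scaling and 0 after normexp, and those lower at 20 h 8 under no scaling. Those higher at 32 h numbered 2 under median scaling and in the deposited table, 3 under quantile normalization and spike-in scaling, 4 under no scaling and 0 with 1 probe per gene. Those higher at 32 h over 20 h numbered 1 under quantile normalization, no scaling, normexp, detection on both arrays and 1 probe per gene. The cause of these shifts was not tested. Apart from detection on both arrays, the share of all probes called was not recomputed under these settings. The counts therefore cannot be set against it. Signal close to background limits Areg, Fgf2 and 4 of the Igf1 probes.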
